A study of Mus musculus with 23 samples.

Results

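Spleen tumors of IL6Myc transgenic mice were compared with quiescent B cells of wild-type spleens. By their labels 11 of the 23 RNA sequencing libraries of the series entered, 7 tumors and 4 quiescent libraries. The tumors came from 7 mice, numbered 1610 to 1616, and each is named here by its mouse. Their labels call them malignant plasma cells of the spleen and give the genotype as IL6Myc, with no treatment. The quiescent libraries, numbered 1 to 4, are untreated B cells from spleens of WT Balb/c mice. All samples of both groups passed magnetic negative selection for B cells, in which beads hold back cells that carry markers of other lineages. Age, sex, the promoter of the transgenes and whether each quiescent library is a separate mouse are not given in the labels. P-values therefore measure the spread between these libraries, part of which may be technical on the quiescent side.

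Plasma cells are B cells that have matured into secretors of antibody. Their program rests on the transcription factors PRDM1, XBP1 and IRF4, which turn down B cell genes such as PAX5 and build up the endoplasmic reticulum (ER), where antibodies are folded. Interleukin 6 signals through IL6R, IL6ST, JAK kinases and STAT3 and is known as a survival factor of plasma cells. MYC is a transcription factor of cell growth and division. A quiescent B cell in the spleen neither divides nor secretes antibody and carries the B cell receptor, CD20 (MS4A1) and class II molecules on its surface.

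Levels are counts scaled to a common library size (CPM) with TMM scaling over the 11 libraries. Each log2 change is the spleen tumors over quiescent B cells from edgeR's quasi-likelihood test, with an approximate standard error (SE), and a gene passed at a Benjamini-Hochberg adjusted p under 0.05 over all genes tested. A gene was tested when it had 1 CPM or more in at least 4 of the 11 libraries, and 11043 genes were. Library totals lay between 13328866 and 20091467 counts in the tumors and between 15529618 and 24226060 in quiescent cells. Of the genes tested, 4284 (38.8%) passed, 2646 higher in tumors (24.0%) and 1638 lower (14.8%). These shares are the background for the count of each gene list below. In 1861 genes (16.9%) all 7 tumors lay above every quiescent library, and in 2152 genes (19.5%) all 7 lay below. The number called fell to 2153, 2274, 2255 and 2643 when quiescent library 1, 2, 3 or 4 was left out, while leaving out 1 tumor gave between 3447 and 4817. Higher genes made up 61.8% of the calls, but 42.8% with quantile normalization and 73.2% with library totals as the only scaling.

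The tumors differed far more among themselves than the quiescent libraries did. Correlations of log2 levels across genes were 0.989 to 0.995 between quiescent libraries and 0.746 to 0.982 between tumors. Against the quiescent libraries, tumor 1610 correlated at 0.956 to 0.962 and tumor 1611 at 0.673 to 0.683. The label of malignant plasma cells was met unevenly. SDC1, the surface proteoglycan that defines plasma cells, had 8.97, 199, 27.8, 70.5, 113, 9.48 and 409 CPM in tumors 1610 to 1616, against 25.6, 22.2, 23.9 and 25.4 CPM in quiescent libraries 1 to 4. Tumors 1610 and 1615 thus lay below every quiescent library for this marker and tumor 1612 barely above, so the libraries are called spleen tumors here and not plasma cells. Counts of Y-linked genes, which were left out of all tests, also split the tumors: they came to 446, 199, 6.11, 14.1, 54.1, 414 and 204 CPM in tumors 1610 to 1616, against 474 to 487 CPM in quiescent cells. Their part in the results was not tested beyond a fit without tumors 1612, 1613 and 1614.

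**Figure D1:**
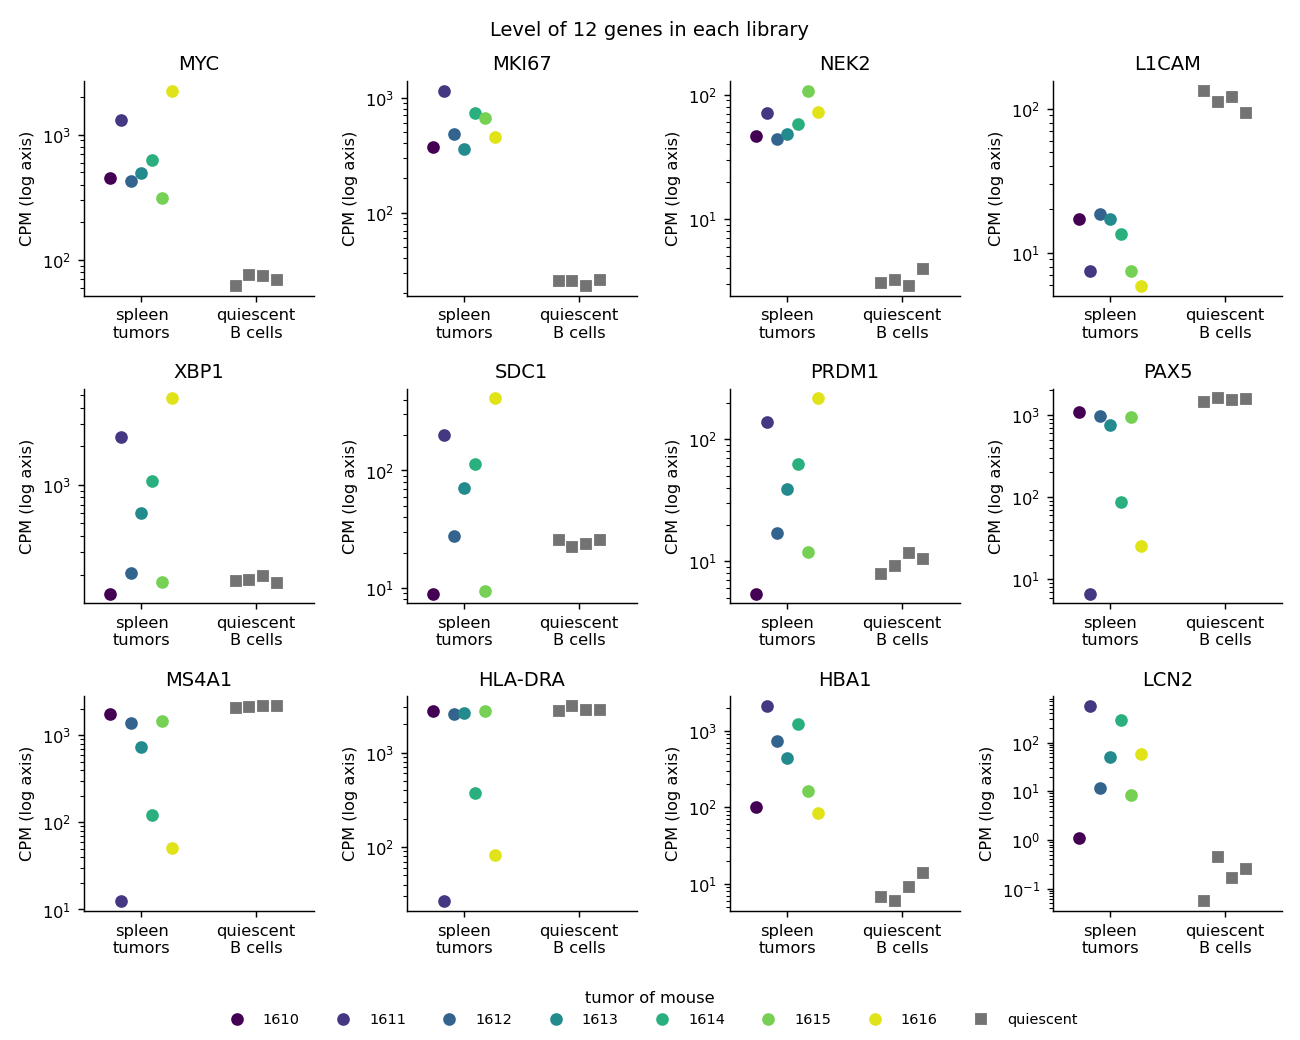
Level of 12 genes in each library, in CPM on a log axis; circles are the 7 spleen tumors, colored by mouse in the order 1610 to 1616 from left to right, and grey squares are the 4 quiescent libraries. MYC, MKI67, NEK2, HBA1 and LCN2 lie above and L1CAM, PAX5 and MS4A1 below every quiescent library in all 7 tumors, while SDC1 lies below the quiescent libraries in tumors 1610 and 1615. LCN2 has under 1 CPM in every quiescent library and was tested through the tumors alone, so its direction was fixed.

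MYC had 2247 CPM in tumor 1616, 1304 CPM in tumor 1611, 312.7 CPM in tumor 1615 and between 426 and 624.9 CPM in the other tumors, against 61.9, 75.63, 74.99 and 69.25 CPM in quiescent libraries 1 to 4. Every tumor was above every quiescent library, and tumor 1616 was the highest. The log2 change was 3.57 ± 0.61 (SE, adjusted p = 0.00327). The genotype itself names MYC, so the direction of this test may have been set by the transgene. RNA of the transgene and of the mouse's own gene was not told apart. Of 11 genes of the MYC network tested, MYC, MYCL, MXD3 and MXI1 rose and MGA and MLXIP fell, with a median log2 change of 0.12 against 0.09 over all genes tested. MXD3, a repressor that pairs with MAX as MYC does, changed by 3.31 ± 0.63 (SE, adjusted p = 0.00522), and only tumor 1616, at 0.962 CPM, stayed within the quiescent range of 0.495 to 1.27 CPM. MGA, another MAX partner, had 85.4 to 227 CPM in tumors, against 276 to 297 CPM in quiescent cells (-0.79 ± 0.23, adjusted p = 0.0205). The calls of MYC, MXD3 and MYCL held in all 11 fits that left out 1 library, and those of MGA, MXI1 and MLXIP were lost without any 1 of the quiescent libraries.

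Nearly every gene of mitosis separated the groups. Of 39 tested, 36 rose and 1 fell, at a median log2 change of 3.91, and in 36 all 7 tumors lay above every quiescent library. MKI67, the proliferation marker, had 373, 1147, 484, 361, 733, 666 and 453 CPM in tumors 1610 to 1616, against 25.5, 25.7, 23.1 and 26.1 CPM in quiescent cells. Every tumor lay far above the quiescent libraries, tumors 1610 and 1615 included (log2 change 4.59 ± 0.38, SE, adjusted p = 0.000319). NEK2, a kinase of the centrosome named after its values were seen, had 43.9 to 107 CPM in tumors, against 2.895 to 3.995 CPM in quiescent cells, and had the smallest adjusted p among the named genes (4.28 ± 0.30, SE, adjusted p = 0.000202). The largest changes in the list were those of BIRC5 (survivin, 4.90 ± 0.52), the cyclins CCNA2 (4.86 ± 0.55) and CCNB1 (4.75 ± 0.52) and the ubiquitin-conjugating enzyme UBE2C (4.73 ± 0.47), all with SE and adjusted p between 0.000391 and 0.000526. Tumor 1616, the highest for MYC, was the lowest for BIRC5, CCNA2 and CCNB1, at 21.4, 46.3 and 30.4 CPM. The phosphatase CDC25B went the other way, with 43.4 to 125 CPM in tumors, against 159 to 174 CPM in quiescent cells (-0.73 ± 0.23, SE, adjusted p = 0.0293), a call lost without any 1 quiescent library. The count of mitosis genes that rose lay between 35 and 38 when any 1 library was left out.

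Promoter sequences of mitosis and ER genes are shown because both lists are known for a shared promoter element. Windows of 250 bases before to 50 after the start came from RefSeq (GRCm38.p6), and motifs were sought on both strands. The cell cycle homology region (CHR; TTTGAA or TTCGAA) was found in 24 of the 32 tested mitosis genes that had a window (75%), against 5854 (21.7%) of 27025 genes with a window. The box CCAAT, bound by NF-Y, was found in 24 of the 32, against 41.1% of all. The ER stress element (ERSE; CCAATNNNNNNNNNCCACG, which contains a CCAAT box) was found in 9 of 35 ER stress and secretion genes with a window (25.7%), against 0.137% of all, namely HSPA5, HSP90B1, CALR, CANX, PDIA6, DNAJC3, CRELD2, SYVN1 and ERO1B. CCAAT alone was found in 29 of the 35. A match describes these letters only. Capitals mark CHR and CCAAT in Ube2c and Mki67, and ERSE and CCAAT in Creld2 and Hsp90b1, on either strand, so that CCAAT on the other strand reads ATTGG and TTTGAA reads TTCAAA.
Ube2c (chr2:164769679-164769978, plus strand): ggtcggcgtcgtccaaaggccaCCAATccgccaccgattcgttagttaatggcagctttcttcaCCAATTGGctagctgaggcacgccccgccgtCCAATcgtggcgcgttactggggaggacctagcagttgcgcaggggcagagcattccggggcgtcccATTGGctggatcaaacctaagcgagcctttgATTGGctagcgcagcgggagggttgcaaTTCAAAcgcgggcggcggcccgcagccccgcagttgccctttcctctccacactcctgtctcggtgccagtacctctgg
Mki67 (chr7:135716330-135716629, minus strand): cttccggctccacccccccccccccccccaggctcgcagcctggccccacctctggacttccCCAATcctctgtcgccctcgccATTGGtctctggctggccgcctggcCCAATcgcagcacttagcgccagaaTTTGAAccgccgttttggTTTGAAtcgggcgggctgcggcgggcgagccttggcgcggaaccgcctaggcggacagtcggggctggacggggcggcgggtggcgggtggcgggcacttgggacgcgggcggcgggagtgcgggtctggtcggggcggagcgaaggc
Creld2 (chr15:88819396-88819695, plus strand): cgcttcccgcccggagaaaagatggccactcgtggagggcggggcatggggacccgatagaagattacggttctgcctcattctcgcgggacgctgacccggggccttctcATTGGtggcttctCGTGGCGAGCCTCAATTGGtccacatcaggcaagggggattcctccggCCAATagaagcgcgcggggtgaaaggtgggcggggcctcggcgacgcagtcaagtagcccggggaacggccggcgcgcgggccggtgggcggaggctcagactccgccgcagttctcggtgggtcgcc
Hsp90b1 (chr10:86705395-86705694, minus strand): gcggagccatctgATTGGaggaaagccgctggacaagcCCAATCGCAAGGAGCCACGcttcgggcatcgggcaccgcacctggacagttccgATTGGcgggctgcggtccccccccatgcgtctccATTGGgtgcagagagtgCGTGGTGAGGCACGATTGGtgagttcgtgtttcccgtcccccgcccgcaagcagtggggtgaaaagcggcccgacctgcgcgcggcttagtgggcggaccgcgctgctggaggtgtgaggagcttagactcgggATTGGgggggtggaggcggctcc
Mki67 holds 2 CHR and 3 CCAAT matches and Ube2c holds 1 CHR and 6 CCAAT matches. Hsp90b1 holds 2 ERSE matches and Creld2 holds 1. These genes were chosen for large log2 changes among those with a match: 4.73 for UBE2C, 4.59 for MKI67, 3.35 for CRELD2 (adjusted p = 0.0354) and 2.32 for HSP90B1, which did not pass (adjusted p = 0.0837). Of the 9 genes with an ERSE match CRELD2 alone passed, and the log2 changes of the 9 ran from 0.28 for SYVN1 (adjusted p = 0.542) to 3.35.

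Of 38 DNA replication genes tested, 28 were higher and 1 lower (median log2 change 1.36). Tumor 1616 was the lowest tumor, with a summed level of 1387 CPM, against 1492 to 1618 CPM in quiescent cells, while the other tumors had 2347 to 5026 CPM. By mean log2(CPM + 1) of the same 38 genes, however, tumor 1616 lay above the quiescent libraries, at 4.73 against 4.31 to 4.40. CDC6, which loads the replicative helicase, had 24.0 to 124 CPM in tumors, against 1.31 to 2.11 CPM in quiescent cells (4.97 ± 0.55, SE, adjusted p = 0.000525). RRM2, the ribonucleotide reductase subunit, had 75.5 to 347 CPM in tumors and 6.65 to 9.41 CPM in quiescent cells (4.44 ± 0.49, adjusted p = 0.000526). For CDC6 and RRM2 the groups did not overlap, and tumor 1611 was the highest for each. The gene that fell was POLD1, the catalytic subunit of DNA polymerase delta, with 22.8 to 194 CPM in tumors, against 218 to 290 CPM in quiescent cells (-1.20 ± 0.43, adjusted p = 0.0483), and its call was lost in 8 of the 11 fits without 1 library.

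Cell cycle entry genes moved in both directions. Among 18 D-type cyclins, their kinases, inhibitors and E2F partners, 8 rose and 3 fell. CCND2, the D cyclin that carried a call, had 189, 673, 141, 218, 380, 93.0 and 1219 CPM in tumors 1610 to 1616, against 71.6, 63.1, 69.7 and 84.2 CPM in quiescent cells. All tumors lay above, tumor 1615 by the least (2.53 ± 0.70, SE, adjusted p = 0.019), and the call was lost without quiescent library 1, 2 or 3. CCND1 had 0.428 to 8.29 CPM in tumors and 2.03 to 6.15 CPM in quiescent cells (0.50 ± 0.65, SE, adjusted p = 0.543), and CCND3 had 56.8 to 269 CPM and 92.3 to 134 CPM (0.60 ± 0.34, SE, adjusted p = 0.168), so neither passed. The repressor E2F8 (5.13 ± 0.71) and the inhibitors CDKN2B (3.96 ± 1.03) and CDKN1A (3.84 ± 1.00) rose, whereas CDKN1B (p27, -0.99 ± 0.16), RBL2 (-0.72 ± 0.16) and RB1 (-0.68 ± 0.13, named after its values were seen) fell. CDKN2B had under 1 CPM in every quiescent library and was tested through the tumors alone, so its direction was fixed. CDKN1B had 93.4 to 169 CPM in tumors, against 246 to 278 CPM in quiescent cells.

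Ribosome biogenesis genes rose by smaller amounts. Of 33 tested, 28 were higher and 0 lower (median log2 change 0.87), and 25 had all 7 tumors above every quiescent library. NPM1, nucleophosmin, had 1215, 1263, 1081, 789, 822, 1399 and 1184 CPM in tumors 1610 to 1616, against 445 to 464 CPM in quiescent cells (1.29 ± 0.19, SE, adjusted p = 0.0018). GNL3, nucleostemin, had 124 to 501 CPM in tumors, against 70.6 to 73.7 CPM in quiescent cells (1.58 ± 0.39, adjusted p = 0.0125), with tumor 1616 the highest. Glycolysis genes followed, with 10 of 19 higher and 0 lower at a median of 0.82. Among them, the lactate transporters SLC16A3 (4.09 ± 0.79) and SLC16A1 (3.26 ± 0.46) and hexokinase HK2 (1.79 ± 0.26) had the largest changes beside PFKM, and these calls held whichever library was left out. SLC16A3, however, had under 1 CPM in every quiescent library and was tested through the tumors alone, so its direction was fixed. Tested against a change of 2-fold, 1 ribosome biogenesis gene and 32 mitosis genes passed.

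**Figure D2:**
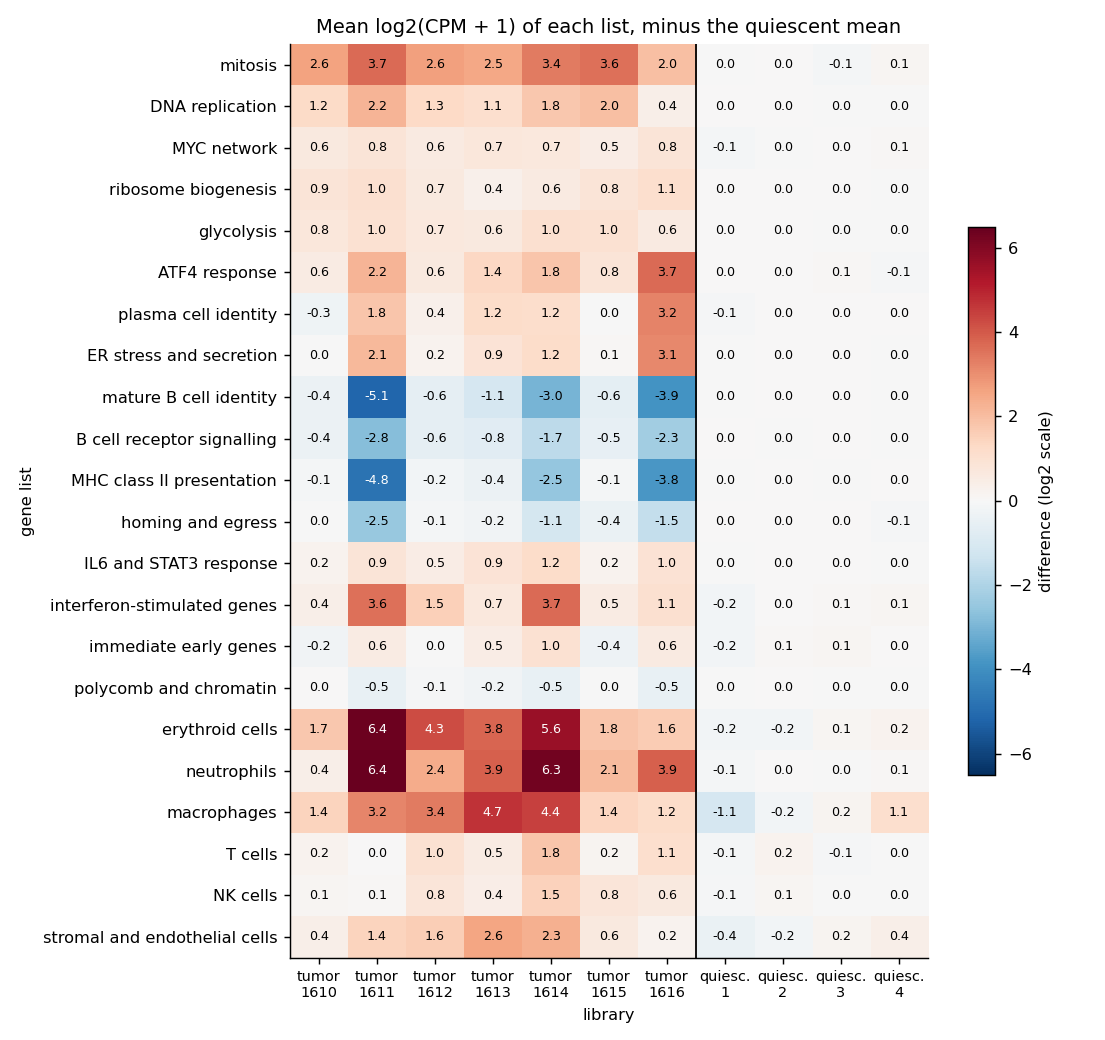
Mean log2(CPM + 1) of 22 gene lists in each library, minus the mean of the 4 quiescent libraries; red is higher and blue lower, with tumors left of the line and quiescent libraries right of it. Mitosis genes are at least 1.97 above the quiescent mean in every tumor, whereas mature B cell genes range from -0.36 in tumor 1610 to -5.14 in tumor 1611.

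Plasma cell genes were unevenly raised among the tumors. Of 22 tested, 9 were higher (40.9%, against 24.0% of all genes tested) and 1 lower (median log2 change 2.02). In 3 all 7 tumors lay above every quiescent library, a share not above the 16.9% over all genes tested. Relative to the quiescent mean, the list's mean log2(CPM + 1) differed by 3.22 in tumor 1616, 1.79 in 1611, 1.20 in 1613, 1.15 in 1614, 0.35 in 1612, -0.04 in 1615 and -0.29 in 1610. XBP1, the factor that drives the secretory program, had 142, 2362, 207, 604, 1069, 176 and 4721 CPM in tumors 1610 to 1616, against 180, 182, 195 and 173 CPM in quiescent libraries. Tumor 1615 lay within the quiescent range and tumor 1610 below it (2.86 ± 1.02, SE, adjusted p = 0.0456). PRDM1, the master regulator of plasma cells, had 5.45, 138, 17.03, 39.48, 62.77, 12.03 and 215.9 CPM in the tumors, against 7.81 to 11.6 CPM in quiescent cells, and again tumor 1610 was the lowest (2.84 ± 0.95, SE, adjusted p = 0.0374). IRF4 had 119 to 1442 CPM in tumors and 218 to 257 CPM in quiescent cells; tumors 1611 and 1616 lay above, tumors 1610, 1612 and 1615 below (0.81 ± 0.66, SE, adjusted p = 0.327). SDC1, with the values above, did not pass (2.30 ± 1.00, SE, adjusted p = 0.0854). JCHAIN, which joins IgA and IgM subunits, had 242 to 11320 CPM in tumors and 1151 to 1520 CPM in quiescent cells (1.03 ± 0.92, adjusted p = 0.374).

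The 3 genes of the list with all tumors above every quiescent library, 1610 and 1615 included, were CD28, FKBP11 and EAF2. CD28, a costimulatory receptor also found on plasma cells, had 0.655 to 22.4 CPM in tumors, against 0.164 to 0.330 CPM in quiescent cells (4.98 ± 1.09, SE). With under 1 CPM in every quiescent library it was tested through the tumors alone, so its direction was fixed and its call supports nothing. FKBP11, a folding enzyme of the ER, had 6.44 to 357 CPM in tumors, against 3.74 to 4.38 CPM in quiescent cells (4.34 ± 1.18, adjusted p = 0.0175). EAF2, which takes part in transcript elongation and was named after its values were seen, had 28.0 to 245 CPM in tumors and 5.50 to 6.66 CPM in quiescent cells (3.67 ± 0.69, SE, adjusted p = 0.00509). TNFRSF13B (TACI), a receptor for BAFF and APRIL, went the other way, with 110 to 296 CPM in tumors, against 341 to 401 CPM in quiescent cells (-0.98 ± 0.24, SE, adjusted p = 0.0122). The count of plasma cell genes that rose was 2, 2, 2 and 4 without quiescent library 1, 2, 3 or 4, and 5 without tumor 1611 or 1614. XBP1 lost its call in 8 and PRDM1 in 6 of the 11 fits that left out 1 library, any of the quiescent ones among them.

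ER stress and secretion genes ranked the tumors in the same order, but for tumors 1613 and 1614. Relative to the quiescent mean their mean log2(CPM + 1) differed by 3.10 in tumor 1616, 2.13 in 1611, 1.17 in 1614, 0.90 in 1613, 0.21 in 1612, 0.05 in 1615 and -0.05 in 1610. Of 44 tested, 14 rose (31.8%, against 24.0% of all genes tested) and 0 fell. The median log2 change was 1.45, and the log2 change of all 44 was above 0. SEL1L, a subunit of the ER degradation machinery, had 130, 2503, 195, 744, 999, 151 and 8401 CPM in tumors 1610 to 1616, against 182, 179, 170 and 167 CPM in quiescent cells. Tumors 1610 and 1615 lay below every quiescent library (3.43 ± 1.23, SE, adjusted p = 0.0469). CRELD2 had 63.0 to 2702 CPM in tumors, against 64.4 to 70.1 CPM in quiescent cells (3.35 ± 1.11, SE), and ERN1, the stress sensor that splices XBP1 RNA, had 14.7 to 672 CPM, against 18.02 to 22.95 CPM (3.21 ± 1.11, SE, adjusted p = 0.0412). SSR4, a subunit of the translocon-associated complex, was higher in all 7 tumors, at 73.6 to 1485 CPM, against 55.4 to 61.1 CPM in quiescent cells (2.87 ± 0.86, SE, adjusted p = 0.025). The count of 14 was 0, 0, 1 and 1 without quiescent library 1, 2, 3 or 4, 6 without tumor 1611, 9 without tumor 1614 and 23 without tumor 1610 or 1615.

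Of 18 genes of the response to ATF4, the factor of amino acid shortage and stress, 11 rose and 0 fell, at a median log2 change of 1.92. ASNS, asparagine synthetase, had 11.3, 274, 27.3, 58.1, 160, 28.5 and 508 CPM in tumors 1610 to 1616, against 4.56, 2.27, 2.29 and 2.28 CPM in quiescent cells. No tumor overlapped the quiescent range (5.74 ± 1.21, SE, adjusted p = 0.00714). SLC7A5, an amino acid transporter, had 87.3 to 1378 CPM in tumors, against 26.8 to 29.4 CPM in quiescent cells (3.77 ± 0.84, adjusted p = 0.00894). ATF4 RNA itself had 235 to 709 CPM in tumors and 230 to 258 CPM in quiescent cells (0.48 ± 0.31, SE, adjusted p = 0.221).

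Immunoglobulin genes took 1.13%, 17.5%, 1.65%, 4.95%, 6.97%, 1.03% and 18.2% of the counts in tumors 1610 to 1616, against 2.23% to 2.79% in quiescent cells. Tumors 1610, 1612 and 1615 lay below and the other tumors above the quiescent libraries. IGHA1, which stands here for the mouse alpha heavy chain, had 1827, 123300, 1357, 3603, 22950, 1286 and 1998 CPM in the tumors, against 190, 251, 386 and 83.9 CPM in quiescent cells. All tumors lay above (6.62 ± 1.84, SE, adjusted p = 0.0192), the log2 change was 4.61 without tumor 1611, and the call was lost without any 1 of the quiescent libraries. IGHM, the mu chain of naive B cells, had 4288, 1027, 5865, 3083, 3742, 3222 and 418 CPM in the tumors, against 12880 to 15630 CPM in quiescent cells. Every tumor lay below (-2.19 ± 0.55, SE, adjusted p = 0.0136). Of the summed alpha, mu and epsilon counts, alpha made up 29.9%, 99.2%, 18.3%, 53.8%, 85.9%, 28.5% and 82.6% in tumors 1610 to 1616, against 0.613% to 2.60% in quiescent cells. IGHE, the epsilon chain, reached 202 CPM in tumor 1612 and 27.1 CPM in tumor 1614, against 0.715 to 2.02 CPM in quiescent cells (4.85 ± 1.55, SE, adjusted p = 0.0312; 2.80 at the lowest with 1 library left out). The lambda constant genes IGLC3 (-1.74 ± 0.39) and IGLC2 (-1.04 ± 0.28) fell, and since such copies are nearly identical their counts cannot be told apart with certainty. The gamma and delta heavy chain names IGHG1, IGHG2, IGHG3 and IGHD had no entry with counts among those analysed. The alpha shares above therefore leave these chains out.

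Variable region genes were dominated by single entries in several tumors. IGKV4-1 had 113500 CPM in tumor 1616 and made up 99.9% of the 1063344 kappa variable counts there, while it had 9.88 to 132 CPM in the other tumors and 30.7 to 49.2 CPM in quiescent cells. The same tumor had 719 counts of heavy variable genes. In tumor 1614 another entry under this name made up 76.4% of kappa variable counts. IGHV7-81 made up 90.0% of heavy variable counts in tumor 1610 and 84.8% of 123011 in tumor 1613, against 27.6% to 41.4% in quiescent cells. The largest kappa share in quiescent cells was 44.1%, of IGKV1-12 in library 2. These shares rest on 15 heavy and 24 kappa entries with human names, which mark mouse variable genes only as ortholog labels, and 11 entries carry the name IGKV4-1.

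Most B cell identity genes lay below the quiescent range in every tumor, by very unequal amounts. Of 31 tested, 25 had all 7 tumors below every quiescent library, against 19.5% of all genes tested. Only 3 passed the test as lower (9.68%, against 14.8% of all genes tested) and 0 as higher, at a median log2 change of -1.31. PAX5, the factor that maintains B cell identity, had 1067, 6.71, 964, 760, 86.7, 942 and 25.7 CPM in tumors 1610 to 1616, against 1441, 1579, 1525 and 1548 CPM in quiescent cells. Tumors 1611, 1614 and 1616 were far below, and the other tumors lay between 760 and 1067 CPM (-1.47 ± 1.01, SE, adjusted p = 0.251). MS4A1 (CD20) had 1742, 12.4, 1401, 732, 122, 1452 and 50.3 CPM in the tumors, against 2064 to 2171 CPM in quiescent cells, in the same order but for tumors 1612 and 1615 (-1.44 ± 0.99, SE, adjusted p = 0.251). CR2, a complement receptor, had 8.33 to 946 CPM in tumors, against 2101 to 2505 CPM in quiescent cells, a log2 change of -2.62 that did not pass (adjusted p = 0.0678).

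The 3 B cell genes that fell were KLF3, RALGPS2 and BCL6. KLF3, a repressor of the Krüppel family, had 139, 115, 152, 111, 134, 98.8 and 104 CPM in tumors 1610 to 1616, against 204 to 239 CPM in quiescent cells (-0.91 ± 0.14, SE, adjusted p = 0.00178). RALGPS2, a guanine exchange factor, had 75.9 to 477 CPM in tumors, against 694 to 797 CPM in quiescent cells (-1.52 ± 0.47, SE, adjusted p = 0.0283). BCL6, the repressor of germinal center B cells, had 17.5 to 172 CPM in tumors, against 193 to 229 CPM in quiescent cells (-1.36 ± 0.46, adjusted p = 0.0395). This count of 3 became 1 without any 1 of the quiescent libraries and 6 without tumor 1610. In RNA of bulk samples, fewer cells of a type and less RNA per cell cannot be told apart.

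**Figure D3:**
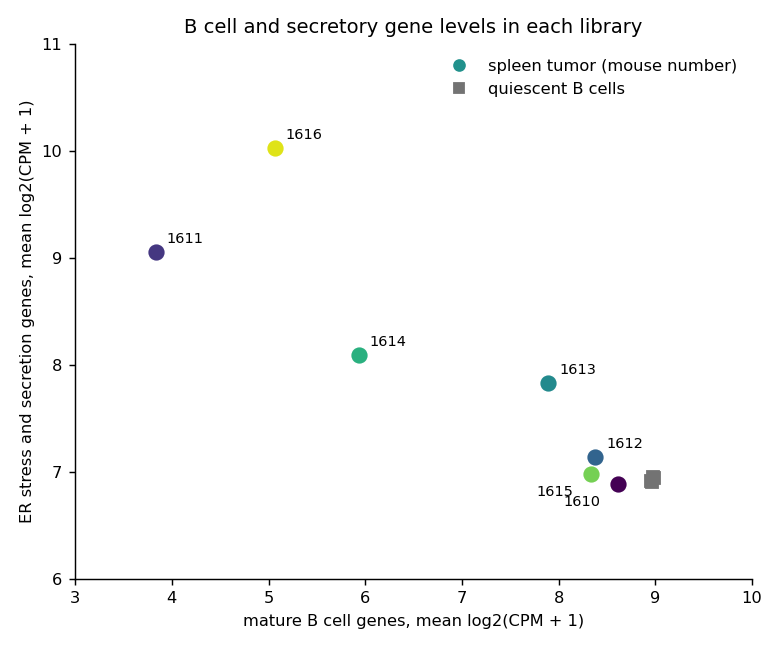
Mean log2(CPM + 1) of mature B cell genes (horizontal axis) and of ER stress and secretion genes (vertical axis) in each library; circles are spleen tumors with their mouse numbers and squares the quiescent libraries. Tumors 1610, 1612 and 1615 lie close to the quiescent libraries and tumors 1611, 1614 and 1616 lie at 3.83 to 5.94 on the B cell axis.

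Of 20 B cell receptor signalling genes, 6 fell and 0 rose, at a median log2 change of -0.86, and 16 had all 7 tumors below. The kinase SYK had 264 to 1311 CPM in tumors, against 1538 to 1832 CPM in quiescent cells (-1.11 ± 0.37, SE, adjusted p = 0.0363), and the adaptor GRAP2 had 50.7 to 174 CPM, against 248 to 273 CPM (-1.13 ± 0.27, SE, adjusted p = 0.0108). SYK lost its call without any 1 of the quiescent libraries or tumor 1614, and GRAP2 kept it in all 11 fits. Of 12 class II presentation genes, edgeR called 0, with 0 at an unadjusted p under 0.05 (median log2 change -0.83). HLA-DRA, the name here of a class II alpha chain, had 2732, 26.7, 2536, 2610, 372, 2749 and 82.8 CPM in tumors 1610 to 1616, against 2748, 3098, 2805 and 2824 CPM in quiescent cells. Tumor 1615 lay at the low end of the quiescent range, tumors 1610, 1612 and 1613 just under it, and tumors 1611, 1614 and 1616 far below (-0.85 ± 0.96, SE, adjusted p = 0.484). CD74, the invariant chain, had 148 to 9218 CPM in tumors, against 10920 to 12030 CPM in quiescent cells (-1.20 ± 0.91, SE, adjusted p = 0.299).

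**Figure D4:**
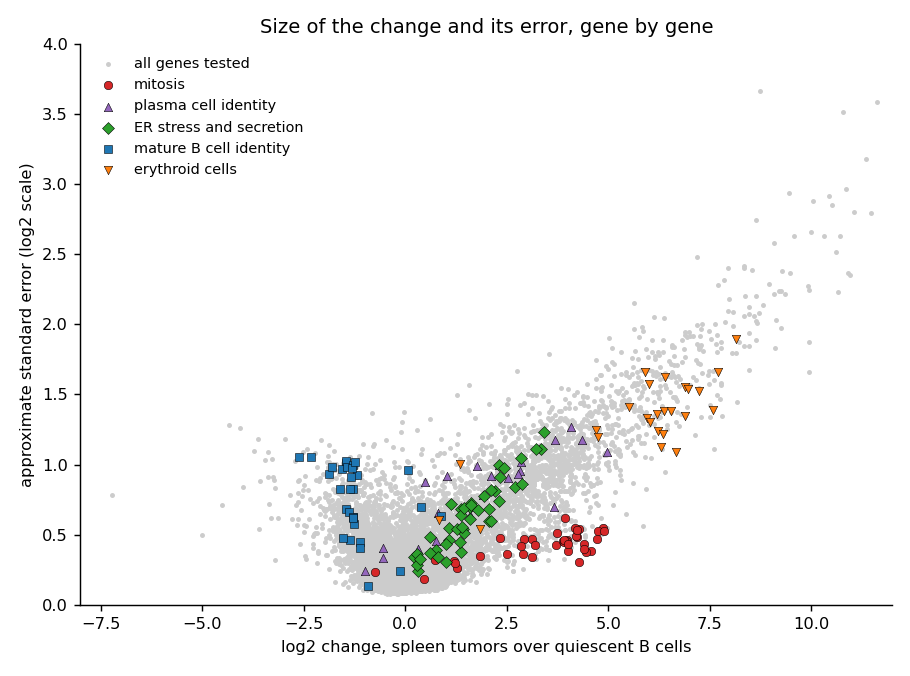
Log2 change, spleen tumors over quiescent B cells (horizontal axis), and its approximate standard error (vertical axis, log2 scale) for all 11043 genes in grey and 5 lists in color. NEK2 in the mitosis list combines a change of 4.28 with an error of 0.30, whereas PAX5 in the mature B cell list has an error of 1.01 beside a change of -1.47.

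On the IL6 axis, IL6 was too low to be tested, at 0 to 1.48 CPM in tumors and 0 to 0.0826 CPM in quiescent cells. Whether RNA of the IL6 transgene is counted under this name is not known. These counts therefore cannot show whether the tumors make IL6 RNA. IL6R had 25.96, 95.41, 47.12, 108, 171, 16.1 and 106 CPM in tumors 1610 to 1616, against 24.3, 28.4, 29.9 and 22.4 CPM in quiescent cells. Tumors 1610 and 1615 did not exceed the quiescent libraries (1.63 ± 0.57, SE, adjusted p = 0.0428), and the call was lost in 8 of the 11 fits without 1 library. STAT3 had 225 to 322 CPM in tumors and 250 to 301 CPM in quiescent cells (0.03 ± 0.12, SE, adjusted p = 0.862). Of 22 genes of the pathway and its known targets, 9 rose and 2 fell, at a median of 0.57. SOCS3, a feedback inhibitor named after its values were seen, had 28.4 to 137 CPM in tumors, against 7.36 to 13.5 CPM in quiescent cells (2.58 ± 0.45, SE, adjusted p = 0.00361). VEGFA, the angiogenic factor, had 4.84, 79.1, 7.50, 52.7, 39.5, 3.04 and 346 CPM in the tumors, against 0.991 to 2.16 CPM in quiescent cells, with no overlap (5.81 ± 1.49, SE, adjusted p = 0.0143). CEBPD (4.51 ± 0.98) and CEBPB (2.65 ± 0.71), factors of the acute phase response, rose as well. CEBPD had under 1 CPM in every quiescent library and was tested through the tumors alone, so its direction was fixed. The kinase TYK2 had 83.8 to 116 CPM in tumors, against 149 to 167 CPM in quiescent cells (-0.59 ± 0.12, SE, adjusted p = 0.00579).

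Of 13 genes of the BCL2 family, which control cell death, 4 rose (30.8%, against 24.0% of all genes tested) and 1 fell. BCL2L1 (BCL-XL) had 10.3, 137, 18.3, 24.9, 84.4, 13.7 and 205 CPM in tumors 1610 to 1616, against 7.97 to 10.1 CPM in quiescent cells (3.0 ± 0.90, SE, adjusted p = 0.0248). MCL1 had 524 to 978 CPM in tumors, against 1060 to 1134 CPM in quiescent cells (-0.51 ± 0.18, SE, adjusted p = 0.0439), and BCL2 had 5.84 to 116 CPM in tumors and 149 to 165 CPM in quiescent cells (-1.36 ± 0.64, SE, adjusted p = 0.109). The pro-apoptotic BBC3 (PUMA) rose by 3.27 ± 0.69 (SE, adjusted p = 0.00715). BCL2L1 and MCL1 lost their calls without any 1 of the quiescent libraries, and MCL1 also without tumor 1611, 1613, 1614 or 1615.

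Homing and egress genes were mostly lower without passing the test. Of 19 tested, 4 rose (21.1%, against 24.0% of all genes tested) and 1 fell (5.26%, against 14.8%), at a median of -0.84. In 10 all 7 tumors lay below every quiescent library, against 19.5% of all genes tested. L1CAM, an adhesion molecule, had 17.1, 7.46, 18.7, 17.1, 13.6, 7.46 and 5.88 CPM in tumors 1610 to 1616, against 133, 111, 120 and 93.3 CPM in quiescent cells. It was low in every tumor (-3.19 ± 0.32, SE, adjusted p = 0.000401). S1PR2, the receptor that keeps germinal center B cells in place, had 95.5, 18.8, 46.3, 56.95, 26.03, 196.5 and 36.2 CPM in the tumors, against 2.92 to 5.77 CPM in quiescent cells. Here tumors 1615 and 1610 were the highest (3.94 ± 0.70, SE, adjusted p = 0.00392). The integrin chain ITGB1 had 151 to 357 CPM in tumors, against 59.2 to 74.2 CPM in quiescent cells (1.86 ± 0.22, SE, adjusted p = 0.000539). CXCR4 had 150 to 356 CPM in tumors and 217 to 284 CPM in quiescent cells (-0.03 ± 0.24, SE, adjusted p = 0.92). DUSP6 and NR3C1 fell by like amounts in all tumors and were picked after their values were seen. DUSP6, a phosphatase of ERK, had 33.1 to 48.3 CPM in tumors, against 98.0 to 131 CPM in quiescent cells (-1.40 ± 0.13, SE, adjusted p = 0.000319), and NR3C1, the glucocorticoid receptor, had 118 to 205 CPM, against 325 to 380 CPM (-1.28 ± 0.15, SE, adjusted p = 0.000615). The calls of L1CAM, S1PR2, ITGB1, DUSP6 and NR3C1 held whichever library was left out. CD44 and ITGB2, homing genes that also rose, lost theirs without any 1 of the quiescent libraries.

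Polycomb and chromatin genes fell more often than they rose, 6 and 2 of 19, at a median of -0.39. The methyltransferase EZH2 had 62.4, 87.9, 58.2, 45.6, 74.0, 119 and 17.4 CPM in tumors 1610 to 1616, against 17.4 to 25.1 CPM in quiescent cells (1.60 ± 0.41, SE, adjusted p = 0.0144), and only tumor 1616 did not exceed the quiescent libraries. Its paralog EZH1 had 46.5 to 98.9 CPM in tumors, against 116 to 144 CPM in quiescent cells (-0.82 ± 0.19, adjusted p = 0.011). The demethylase KDM6B had 63.7 to 111 CPM in tumors, against 154 to 205 CPM in quiescent cells (-1.02 ± 0.15, SE, adjusted p = 0.00189). EZH2 lost its call without quiescent library 1, and NSD2, which also rose, in 8 of the 11 fits without 1 library. Among those that fell, KMT2A lost its call in 7 and CBX7 in 4 of these fits, while EZH1 and KDM6B kept theirs.

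Of 20 immediate early genes, which respond first to a stimulus, 4 rose and 3 fell, at a median of 0.20. These shares were close to the 24.0% higher and 14.8% lower over all genes tested. NR4A2 and IER3, among the 4 that rose, had under 1 CPM in every quiescent library. Both were tested through the tumors alone, so their direction was fixed. FOSL2, an AP-1 subunit, had 3.23 to 42.7 CPM in tumors, against 0.702 to 1.27 CPM in quiescent cells (4.49 ± 0.91, SE, adjusted p = 0.00651), whereas KLF6 had 74.5 to 130 CPM in tumors, against 165 to 184 CPM in quiescent cells (-0.67 ± 0.15, SE, adjusted p = 0.00911).

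Of 19 interferon-stimulated genes 15 rose and 1 fell, at a median of 2.87. RSAD2 (viperin) had 5.09, 419, 28.2, 16.1, 232, 10.9 and 18.6 CPM in tumors 1610 to 1616, against 0.660, 0.949, 5.03 and 1.27 CPM in quiescent cells. Tumors 1611 and 1614 stood far above the others (5.72 ± 1.58, SE, adjusted p = 0.0187). The antiviral synthetases OAS3 and OAS2 had the same tumors on top, with 226 and 147 CPM in tumor 1611 and 189 and 137 CPM in tumor 1614, against at most 6.07 and 4.64 CPM in quiescent cells. DDX58 (RIG-I) fell, with 37.0 to 111 CPM in tumors, against 134 to 148 CPM in quiescent cells (-0.77 ± 0.28, SE, adjusted p = 0.0471), and its call was lost in 7 of the 11 fits without 1 library. The count of 15 became 1, 1, 2 and 3 without quiescent library 1, 2, 3 or 4 and 9 without tumor 1611 or 1614.

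Markers of cells outside the B lineage were measured as well, and their lists differed in direction and extent. Of 25 erythroid genes tested, 23 were higher and 0 lower (median log2 change 6.29). HBA1, an alpha globin, had 102, 2103, 738, 438, 1220, 163 and 84.2 CPM in tumors 1610 to 1616, against 6.71, 5.94, 9.07 and 13.8 CPM in quiescent cells. All tumors lay above, tumors 1611 and 1614 the most (6.29 ± 1.13, SE, adjusted p = 0.00411). KEL, a blood group antigen of red cell precursors, had 4.13 to 152 CPM in tumors, against 0.124 to 0.275 CPM in quiescent cells (7.57 ± 1.39, SE). Of 12 neutrophil genes 11 were called higher, but 10 of the 12 had under 1 CPM in every quiescent library and passed the filter on low values through the tumors alone, so their direction was fixed by the filter and the count supports nothing. The same held for 9 of the 25 erythroid genes, KEL among them. The granule proteins LCN2 and CAMP are among these 10 neutrophil genes, and their values are given as levels only. LCN2 had 1.11, 561, 11.9, 49.8, 288, 8.31 and 59.3 CPM in the tumors, against 0.0550 to 0.454 CPM in quiescent cells (9.14 ± 2.03, SE). CAMP had 11257 counts over the 7 tumors and 3 over the 4 quiescent libraries, a ratio of 2300 with a 95% counting interval of 788 to 11200.

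Of 18 macrophage genes 15 rose with 0 lower (median 3.81), and their summed level ran from 489 to 6363 CPM in tumors, against 63.9 to 423 CPM in quiescent cells. The summed level of erythroid genes was 505 to 10700 CPM in tumors and 240 to 265 CPM in quiescent cells, and that of neutrophil genes 15.8 to 3053 CPM and 9.24 to 11.4 CPM. T cell genes rose in 8 of 15, NK cell genes in 3 of 7, dendritic cell genes in 3 of 8, megakaryocyte genes in 4 of 8, stromal and endothelial genes in 6 of 12 and mast cell genes in 3 of 4, with 0 lower in each. Of all tested members of these lists, risen or not, 5 T cell, 3 NK cell, 1 dendritic cell, 4 megakaryocyte, 2 stromal and 1 mast cell gene had under 1 CPM in every quiescent library. The 3 NK cell genes that rose, GZMA, KLRK1 and NKG7, were such genes, so that count supports nothing. GP9, GP5 and PPBP among the megakaryocyte genes that rose, and CD6, CD3G and CD3E among the T cell genes, were such genes too. The same held for MARCO of the macrophage, CLEC10A of the dendritic cell, COL1A2 of the stromal and GATA2 of the mast cell genes that rose. The counts of these lists thus rest in part on genes whose direction was fixed. The summed megakaryocyte level was lower in all 7 tumors, at 25.5 to 121 CPM, against 147 to 180 CPM in quiescent cells. The mean log2(CPM + 1) of the 8 tested megakaryocyte genes was not, at 1.058 to 3.028 in tumors, against 1.465 to 1.666 in quiescent cells. The summed T cell level did not exceed that of quiescent cells, at 51.0 to 299 CPM, against 281 to 300 CPM in quiescent cells. By mean log2(CPM + 1) of the 15 tested T cell genes, tumors had 1.82 to 3.58, against 1.68 to 2.01 in quiescent cells. CD3E had 0.252 to 6.73 CPM in tumors and 0.0550 to 0.507 CPM in quiescent cells. Tumors 1611 and 1614, the highest for erythroid, neutrophil and interferon-stimulated genes, were 2 of the 3 lowest for B cell genes, while the other, tumor 1616, had 505 CPM of erythroid and 406 CPM of neutrophil genes. In the tumors near quiescent cells, 1610, 1612 and 1615, erythroid genes summed to 577, 3063 and 703 CPM. Neutrophil genes summed to 15.8, 110 and 86.4 CPM there. The part of these cells in the other results was not tested.

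**Figure D5:**
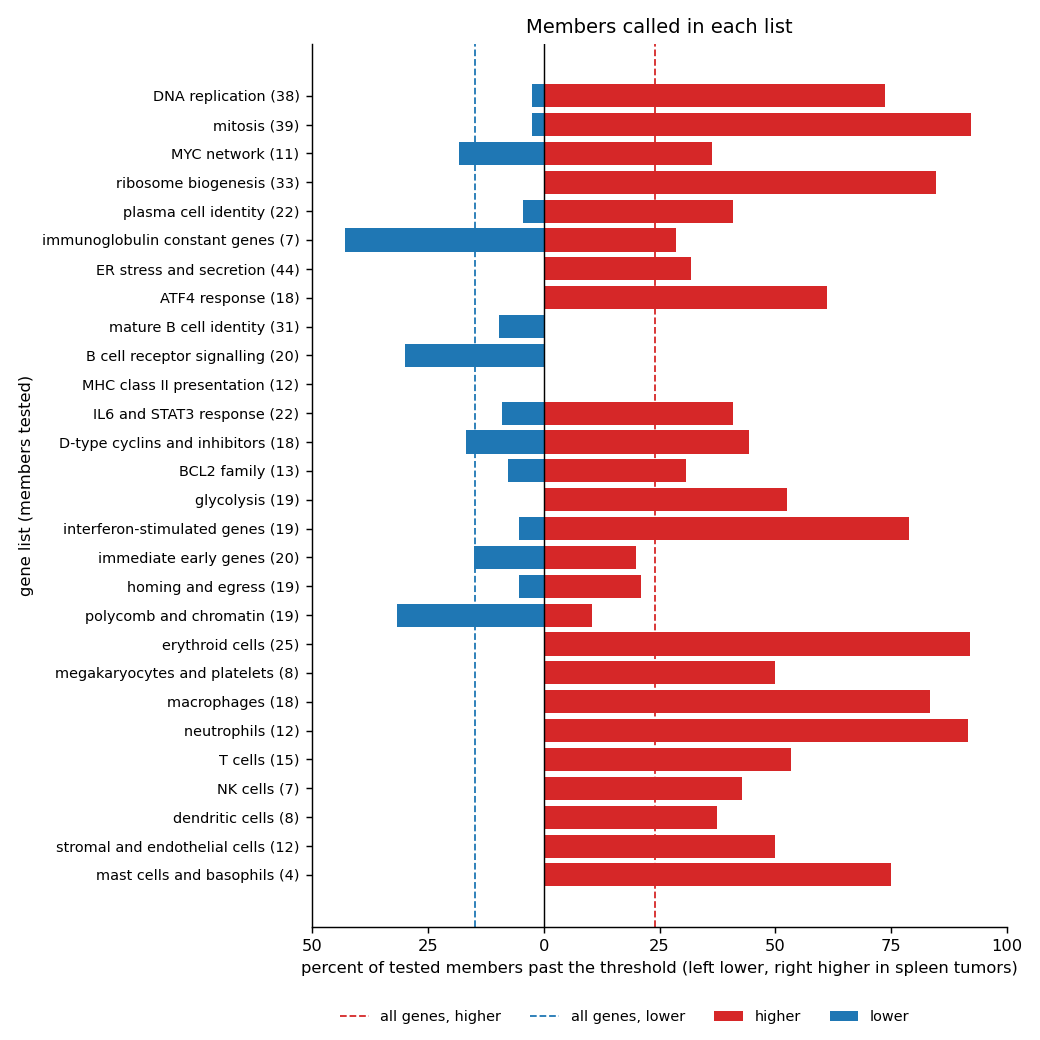
Percent of the tested members of each list that passed the threshold as higher (red, to the right) or lower (blue, to the left) in spleen tumors, with the number tested in brackets; dashed lines give the 24.0% higher and 14.8% lower over all genes. Mitosis, erythroid and neutrophil lists reach above 90% higher, and no class II presentation gene passed. Of the neutrophil genes 10 of 12, and of the erythroid genes 9 of 25, had under 1 CPM in every quiescent library, so their direction was fixed.

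Among all genes, the largest rises past the threshold with no overlap were SERPING1, C6orf15, CAMP, OVOL3, CHRND, EPHA8, TMEM59L and MPO. Each of these genes had under 1 CPM in every quiescent library and was tested through the tumors alone. Their direction was thus fixed by the filter on low values, and their calls support nothing. Several of these genes had almost no quiescent counts, so their fitted changes depend on the prior count. SERPING1, the C1 inhibitor, had 0.504, 182, 4.86, 16.8, 173, 3.99 and 4474 CPM in tumors 1610 to 1616, against 0.110 to 0.328 CPM in quiescent cells. Its log2 change was 11.34 ± 3.18 (SE), and 7.88 at the lowest with 1 library left out. The call of SERPING1 was lost without any 1 quiescent library. EPHA8, an ephrin receptor, had 7540 counts over the tumors and 3 over the quiescent libraries, a ratio of 1540 (95% counting interval 528 to 7490). SLPI, a protease inhibitor among the genes that varied most between tumors, had 78.1, 1327, 566, 15670, 1007, 235 and 42030 CPM in the tumors, against 8.14 to 21.3 CPM in quiescent cells (9.26 ± 2.24, SE, adjusted p = 0.0118). All 7 tumors exceeded the quiescent libraries, over a range from 78.1 to 42030 CPM. The largest falls were those of the kappa entry IGKV4-1_profile7 (-7.21 ± 0.78) and the heavy entry IGHV3-33 (-5.00 ± 0.50), followed by CRISP3, SLC4A11, CPNE4, L1CAM, GAD1 and PTPN14. PTPN14, a phosphatase, had 1.243 to 49.99 CPM in tumors, against 148 to 185 CPM in quiescent cells (-2.84 ± 0.79, SE, adjusted p = 0.0188).

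Against tumors of the mesenteric lymph node (MLN), another site in the same mouse line, no gene passed. Over 7 spleen and 7 MLN tumors, edgeR called 0 of 11507 genes, with 492 at an unadjusted p under 0.05. With the mouse as a replicate block over the 6 mice that gave both tumors it called 0 of 11378, with 318 at an unadjusted p under 0.05 and a smallest adjusted p of 0.269.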

How the data were processed

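RNA of 23 libraries was prepared with an RNeasy column kit and TruSeq Stranded Total RNA, per the labels' protocols. The submitters' processing notes name Trim Galore 0.4.0, DESeq2 and GRCm39, and no label names the quantifier. The authors deposited 1 table whose values are estimated counts per gene under human gene symbols. Of 61651 entries, 17047 were above 0, and entries with identical values were merged to 15881 profiles. The 5 Y-linked profiles were left out, 1 of them, under the name EIF2S3, chosen after its values were seen.

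Counts were rounded to whole numbers and fitted with edgeR 4.0.16 in R 4.3.3 (TMM scaling, quasi-likelihood test, Benjamini-Hochberg adjustment, threshold 0.05) on the 7 spleen tumors and 4 quiescent libraries alone. Library totals are given with the results, and their size limits the precision of low genes. Standard errors were derived from the log2 change and its F statistic. Alternatives used limma 3.58.1, DESeq2 1.42.0, other scalings and filters, and each library left out. Counting intervals are exact at 95% and cover counting error only, and PCR reads without molecular identifiers are not independent molecules.

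Genes are named by rule: 16 fixed genes, the 8 largest rises and falls without overlap at a mean of 20 CPM or more, up to 4 leading members and 2 against the majority of each of 28 lists, members of textbook weight with their values where they did not pass, and the 8 genes most variable among tumors. The members and lists were chosen with earlier results of these data known. Spleen and MLN tumors pair by mouse, from the series' design, and both fits are given.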

Additional observations from a re-analysis of the deposited data

Results flagged for a closer look

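Of 332 groups of values examined, 10 held a library whose gap to its nearest neighbor was a large part of the group's range of log2(CPM + 1), by Dixon's test at the 95% level, and chance gives about 1 in 20. Among spleen tumors, tumor 1616 stood apart for IGKV4-1 at 113500 CPM, for CDC25B at 43.4 CPM and for MXD3 at 0.962 CPM. Among quiescent libraries, library 4 stood apart for IRF4 at 218 CPM, for KLF3 at 204 CPM and for GAD1 at 22.5 CPM. Library 1 stood apart for CDC25B at 174 CPM and for ASNS at 4.56 CPM. Library 2 stood apart for CDKN1A at 4.004 CPM and for TRBC1, a T cell receptor constant gene, at 1.49 CPM.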

How the results depend on the processing

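Genes called came to between 2153 and 4817 when 1 library was left out, higher between 1372 and 2890 and lower between 781 and 2031. In the same fits the counts of higher genes lay between 35 and 38 for mitosis, 22 and 32 for DNA replication, 20 and 28 for ribosome biogenesis, 2 and 12 for plasma cell genes, 0 and 23 for ER stress and secretion, 20 and 23 for erythroid cells, 8 and 12 for neutrophils and 1 and 15 for interferon-stimulated genes, and of lower mature B cell genes between 1 and 6. Of 145 named genes past the threshold, 78 kept the call in all 11 fits. Library totals gave 955 lower genes. Quantile normalization with limma gave 1235 higher genes in all, 1 plasma cell, 6 ER, 7 neutrophil and 2 interferon-stimulated genes, and moved the median log2 change of all genes to -0.08, against 0.09. With limma on log2(CPM + 1), 3 plasma cell, 4 ER and 5 interferon-stimulated genes rose and 7 mature B cell genes fell. DESeq2 gave 33 higher ER and 7 lower mature B cell genes, and 1 fit of all 23 libraries gave 26 and 12. Tested against 2-fold, 663 genes passed, 637 higher and 26 lower, with 14 DNA replication, 1 ribosome biogenesis, 2 plasma cell and 0 ER, interferon-stimulated or mature B cell genes. Without tumors 1612, 1613 and 1614, a choice made after seeing the data, 2578 were called and 729 were lower, with 3 plasma cell, 5 neutrophil and 8 interferon-stimulated genes higher and 1 mature B cell gene lower. The cause of these moves was not tested.

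The log2 change of some genes that did not pass changed sign. CCND1 was -0.514 with quantile normalization. TNFRSF17 was -0.854 with quantile normalization, -0.024 with limma and between -0.356 (without tumor 1616) and 0.75 with 1 library left out. JCHAIN was -0.226 with quantile normalization, -0.016 with limma and between -0.043 (without tumor 1616) and 1.236 with 1 library left out. IGKV4-1 was -0.097 with DESeq2 and between -0.068 (without tumor 1616) and 8.968 with 1 left out. DDIT3 was 0.048 with a minimum of 5 CPM, 0.022 without immunoglobulin genes, 0.213 without tumors 1612, 1613 and 1614, and between -0.175 and 0.097 with 1 left out. STAT3 was -0.017 with no filter and between -0.023 and 0.082 with 1 left out. CXCR4 was 0.132 with quantile normalization, 0.014 at 5 CPM, 0.002 without immunoglobulin genes, and between -0.17 and 0.062 with 1 left out. No paired analysis was possible because spleen tumors and quiescent libraries share no replicate numbers. For spleen against MLN tumors, the replicate block called 0 genes, as did the fit without it.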
